A study of Homo sapiens with 4 samples.

Results

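The interferon regulatory factors (IRFs) are transcription factors that share a DNA-binding domain and read the interferon-stimulated response elements of antiviral, antigen presentation and myeloid genes. All probe sets annotated to IRF1, IRF2, IRF3, IRF4, IRF5, IRF7, IRF8 or IRF9 were taken, those that also name another gene included, which gave 14 of the 54613 probe sets on the array that are not controls and 8 of 19775 genes. Of the 14, 13 name 1 gene and 1 names IRF9 together with its neighbour RNF31.

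The study compared U937-AE with U937-Mt cells. U937 is a human leukemia line of the monocytic lineage. U937-AE is a single clone that carries HA-tagged AML1/ETO, the fusion protein of the 8;21 translocation, behind the zinc-inducible mouse metallothionein promoter, and U937-Mt is a bulk population with the empty vector. Both received 100 µM ZnSO4 for 8 hours, so zinc itself was shared by both arms, whereas the induced protein and the choice of 1 clone cannot be told apart. For each line RNA of 3 extractions was mixed into 1 pool, and that pool was applied to a pair of copies of the HG-U133 Plus 2.0 array from Affymetrix. With 1 pool per line no test between the lines is possible: the spread given here is that between array copies, which covers hybridization error only, and the 4 arrays limit the precision.

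The values are signal intensities on a linear scale. The floor of an array is its 50th percentile, which was 119.5 and 129.7 in U937-AE cells against 146.8 and 153.6 in U937-Mt, and anything below it was set to it ahead of the log2 step. Setting each array of one line against each of the other gives 4 comparisons, and a probe set was called lower or higher when every one of them exceeded 1.5-fold in the same direction. A probe set of RUNX1T1, the gene that encodes ETO, gave 1362 and 1299 in U937-AE cells against 8.6 and 7.6 in U937-Mt, as the labels of the lines require. Monocytic identity was only partly visible: CD14 and FCGR1A were below the floor on all 4 arrays, whereas LYZ, MPO, ITGAM, CSF1R and CD4 were above it. The T cell genes CD3D, CD3E, CD3G and LCK, the erythroid genes ALAS2 and EPB42 and the epithelial genes EPCAM, KRT18, KRT19 and CDH1 were below it on all arrays. The B cell genes CD79A and CD79B, the T cell gene CD2, the erythroid gene HBB and the epithelial gene KRT8 were above it on all arrays.

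The family divides by role. IRF8 and IRF4 are found mainly in blood cells and bind composite elements together with the ETS factors PU.1 and SPIB. IRF8 directs progenitors towards monocytes and dendritic cells and away from granulocytes. IRF1 activates interferon gamma responses, and IRF2 competes with it for the same elements. IRF3, IRF7 and IRF5 are phosphorylated downstream of sensors of foreign nucleic acids and lipopolysaccharide and switch on interferon and cytokine genes. IRF9 is the DNA-binding subunit of the complex that type I interferon receptors activate.

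IRF8 was lower in U937-AE cells and no other member gene was called when each gene was read by its brightest probe set. A second probe set of IRF1 was called higher, although the brightest one was not. Over the 14 probe sets, 1 was called lower, 1 higher and 12 were not called, beside 2.74% called lower and 1.29% called higher of all probe sets. Of the 14, 12 were above the floor on all 4 arrays, and 2 probe sets of IRF4 were below it on all 4. Among the 22349 probe sets above the floor on all arrays, 4.63% were called lower and 2.52% higher. By gene, 1 of 8 was lower and 0 were higher, beside 6.12% and 2.6% of 12934 measured genes, those whose mean log2 signal reached the mean floor in at least 1 pool. A count of 1 among so few is no result about the family, and what follows concerns single members.

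**Figure D1:**
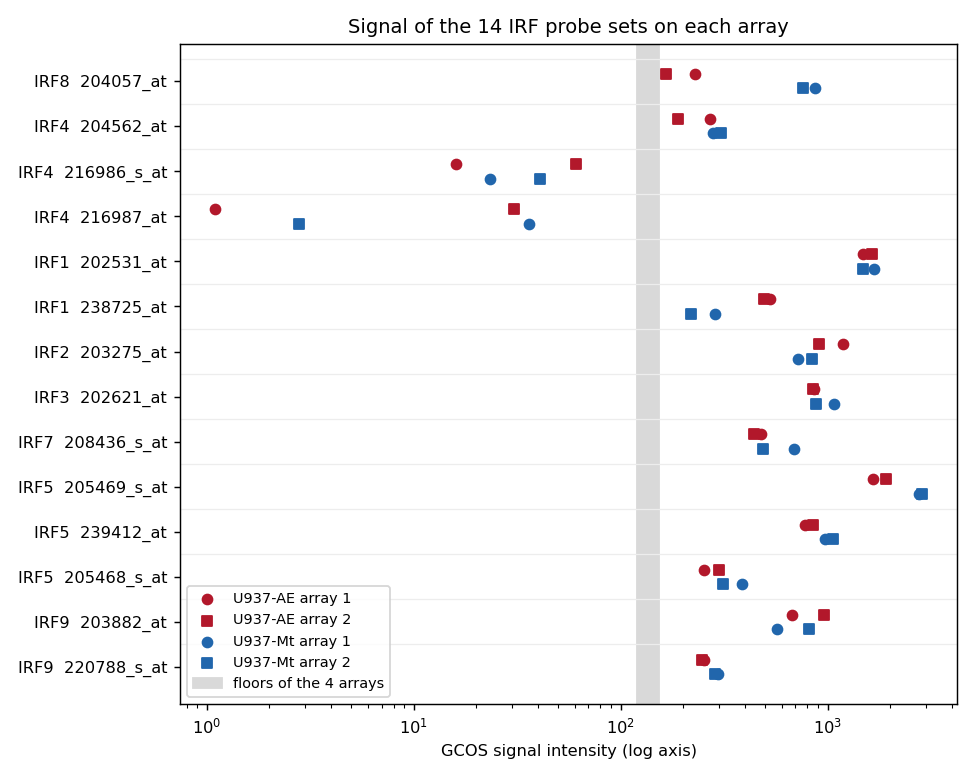
Signal intensity (log axis) of the 14 IRF probe sets on each array, with the U937-AE arrays (red) drawn above the U937-Mt arrays (blue) in each row, circles for array 1 and squares for array 2. The grey band spans the floors of the 4 arrays, 119.5 to 153.6. IRF8 is at 166.5 and 229 in U937-AE and at 765 and 871 in U937-Mt, whereas the lines lie close together in most other rows above the floor.

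IRF8 lies on chromosome 16. The promoter window below is shown because IRF8 is the member that was called and because it holds the hexamer TGTGGT, which AML1 (RUNX1) and its fusion recognise through the runt domain. It is taken from RefSeq (GRCh38.p14, chr16:85902580-85902879, plus strand), covers 250 bases before to 50 after a start site, and has the hexamer in capitals with its first base at position -134 from that start. The start is an alternative one, 3668 bases into the gene from its outermost annotated start, and the window of that outermost start was not analysed here.
IRF8: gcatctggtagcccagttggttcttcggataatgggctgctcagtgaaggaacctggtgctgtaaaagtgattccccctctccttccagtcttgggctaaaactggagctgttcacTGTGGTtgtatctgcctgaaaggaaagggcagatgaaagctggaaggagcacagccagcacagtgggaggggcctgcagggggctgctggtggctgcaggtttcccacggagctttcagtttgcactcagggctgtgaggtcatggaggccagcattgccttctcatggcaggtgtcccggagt

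The IRF8 probe set 204057_at gave 229 and 166.5 in U937-AE cells against 871 and 765 in U937-Mt. Both U937-AE signals stood well below both U937-Mt signals, though above the floor. The copies differed by 1.37-fold within U937-AE and by 1.14-fold within U937-Mt, and the U937-AE signal of IRF8 was 4.18-fold lower (range 3.35 to 5.23, log2 difference -2.06). Its difference was the 45th lowest of 10678 genes above the floor on all arrays, so 0.421% of them were at or below it. In RNA of whole cultures a lower signal from fewer expressing cells and from less RNA per cell cannot be told apart. The call held under all 18 alternative settings, with log2 differences of -2.29 to -0.82. Several of these settings could not end it. Leaving out an array or averaging the arrays uses comparisons that had already passed. The settings that choose or average probe sets change nothing, as IRF8 has only 204057_at.

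Several markers of the monocytic lineage were also lower in U937-AE. Of 7 monocytic marker genes with a probe set, 5 were measured, and their median log2 difference was -1.03. Of these 5, 3 were called lower and none higher, beside 6.12% lower and 2.6% higher of all measured genes. CSF1R (log2 difference -0.78) and CD4 (-0.10) were not called. MPO, a granule enzyme of myeloid precursors, gave 1898 and 1558 in U937-AE cells against 16117 and 14591 in U937-Mt. LYZ (lysozyme) gave 1000.4 and 794 in U937-AE cells against 2022 and 1646 in U937-Mt, and ITGAM, the alpha chain of the CR3 integrin, 544 and 582 in U937-AE cells against 1208 and 1219 in U937-Mt. The second probe set of MPO was also called lower. That of LYZ (log2 difference -0.93) was not called, nor was that of ITGAM (0.06), whose signals overlapped between the lines. The summed signal of the marker list was 6157 to 6733 on the U937-AE arrays and 21252 to 22718 on the U937-Mt arrays. MPO alone gave 14591 to 16117 of it on the U937-Mt arrays. The part of this shift in the IRF8 difference was not tested.

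Among 10677 other genes that exceeded the floor on all arrays, the 5 whose mean-centred log2 signals on the 4 arrays lay closest to those of IRF8 (Euclidean distance 0.17 to 0.28) were ARHGEF10, KLF10, RNASE2CP, CXCR4 and PLEK. CXCR4, the receptor of the chemokine CXCL12, gave 1437 and 1336 in U937-AE cells against 6179 and 5229 in U937-Mt. PLEK, a protein kinase C substrate of platelets and leukocytes, gave 2870.2 and 2665 in U937-AE cells against 12476 and 12077 in U937-Mt. With 4 arrays of 2 pools, such likeness says little more than that these genes differ between the pools by a like amount.

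IRF4, the closest relative of IRF8, lies on chromosome 6. Its probe set 204562_at gave 272 and 189 in U937-AE cells against 280.1 and 306 in U937-Mt, a log2 difference of -0.37 (1.29-fold, 1.03 to 1.62). The U937-AE signals were below the U937-Mt signals without overlap, but 1 of them only narrowly, and the copies within U937-AE differed by 1.44-fold, more than the lines did on average. The other IRF4 probe sets, 216986_s_at and 216987_at, had raw signals of 1.1 to 61.1 and were below the floor on every array. Their log2 difference of -0.27 is that of the floors and carries no measurement.

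**Figure D2:**
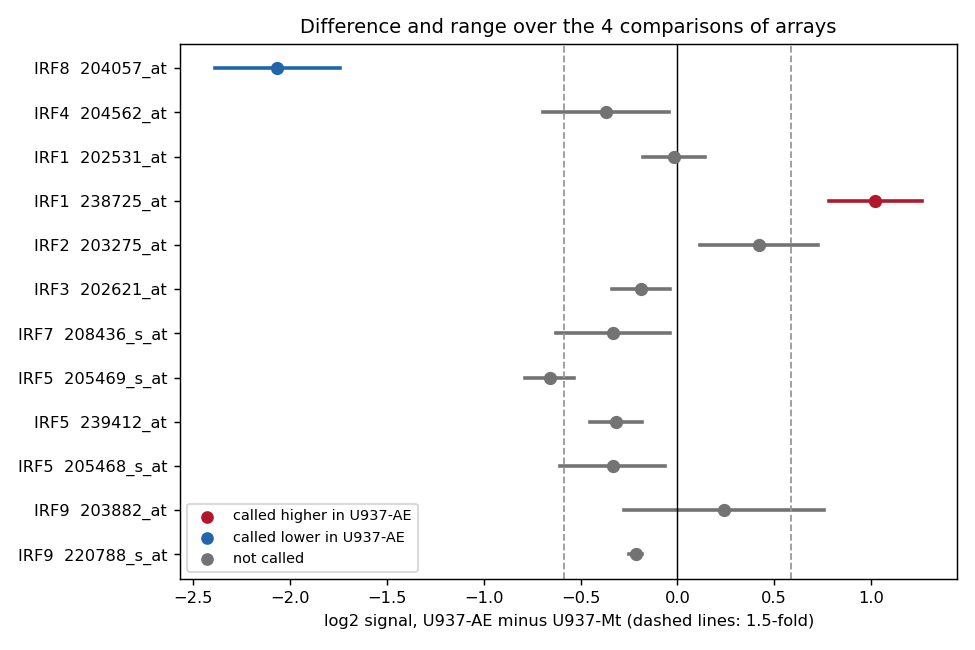
log2 difference (U937-AE minus U937-Mt) of the 12 IRF probe sets above the floor on all arrays. Points are means, bars span the lowest to the highest of the 4 comparisons of single arrays and dashed lines mark 1.5-fold in either direction. The bars of IRF8 (-2.06) and of the IRF1 probe set 238725_at (1.02) lie wholly outside the dashed lines. Those of IRF2, IRF4, IRF7, IRF9 203882_at, IRF5 205469_s_at and IRF5 205468_s_at cross one.

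IRF1, on chromosome 5, was read by a pair of probe sets that gave different results. The brightest, 202531_at, which represents the RefSeq messenger RNA, gave 1486 and 1639.8 in U937-AE cells against 1683 and 1486 in U937-Mt. The ranges overlapped, and the log2 difference was -0.02 (ratio 0.987, 0.883 to 1.10), or 0.25 to 0.32 where the arrays were shifted to the same median or scaled to the spike-ins. The other probe set, 238725_at, which was designed on an expressed sequence tag, gave 527 and 492 in U937-AE cells against 286 and 219 in U937-Mt. Here both U937-AE signals lay above both U937-Mt signals, 2.03-fold on average (1.72 to 2.40, log2 difference 1.02). The call was lost with the floor at the 75th percentile (0.04) and with a 2-fold threshold. Which part of the IRF1 transcript or locus this tag matches was not analysed here, so the difference is that of the tag and cannot be given as one of the IRF1 messenger RNA.

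IRF2, on chromosome 4, gave 1185 and 909 with 203275_at in U937-AE cells against 717 and 839.5 in U937-Mt. Both U937-AE signals were higher, by 1.34-fold (1.08 to 1.65, log2 difference 0.42), yet the copies within U937-AE differed by 1.30-fold, and the probe set was not called. Over the alternatives the log2 difference was 0.23 to 0.76, but most of them could not turn its sign. A changed threshold or test and the mean of the arrays leave the difference as it is. Leaving out an array cannot turn signals that do not overlap, and the median shift and the spike-in scaling raise the difference.

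IRF5, on chromosome 7, had both U937-AE signals below both U937-Mt signals in each of its 3 probe sets, none of which was called. The brightest, 205469_s_at, gave 1662 and 1918 in U937-AE cells against 2779.7 and 2865 in U937-Mt, 1.58-fold lower (1.45 to 1.72, log2 difference -0.66). It missed the call because the second U937-AE array was 1.45-fold below the nearer U937-Mt array. Without that array the log2 difference was -0.76 and IRF5 was called, as it also was under quantile normalization (-0.73) and with the mean of the arrays in place of all 4 comparisons. Of the genes above the floor on all arrays, 8.86% had an equal or lower difference. The other probe sets differed less: 239412_at gave 782 and 855 in U937-AE cells against 971 and 1067 in U937-Mt (log2 difference -0.32), and 205468_s_at gave 254 and 300.2 in U937-AE cells against 387 and 313 in U937-Mt (log2 difference -0.33). Under spike-in scaling both of these were at 0.03 and 0.01, so their direction depends on the scaling, whereas 205469_s_at stayed below 0 (-0.32).

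IRF3, on chromosome 19, and IRF7, on chromosome 11, showed small differences. IRF3 gave 856 and 851 in U937-AE cells against 1074 and 879 in U937-Mt with 202621_at. The second U937-Mt array was close to both U937-AE arrays, and the log2 difference was -0.19 (1.14-fold, 1.03 to 1.26) as deposited but 0.08 to 0.16 after the shift to the same median or to the spike-ins. IRF7 gave 477 and 443 in U937-AE cells against 685 and 490.5 in U937-Mt with 208436_s_at. Its log2 difference was -0.33 as deposited (1.26-fold, 1.03 to 1.55), against copies of U937-Mt that differed by 1.40-fold, and 0.01 under spike-in scaling.

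IRF9, on chromosome 14, gave 673 and 961 with 203882_at in U937-AE cells against 568 and 814.5 in U937-Mt. The ranges overlapped, because the copies differed by 1.43-fold within each line, and the log2 difference of 0.24 (ratio 1.18, 0.826 to 1.69) was smaller than this spread. It was 0.51 after the shift to the same median, 0.59 with the spike-ins and -0.02 without the first U937-Mt or the second U937-AE array. The probe set 220788_s_at gave 252 and 248 in U937-AE cells against 295 and 285.5 in U937-Mt, a log2 difference of -0.22 as deposited and 0.06 to 0.13 after the shift to the same median or to the spike-ins. It names RNF31 as well as IRF9, and the share of either gene in its signal cannot be told apart.

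The letters of the gamma-activated site, TTCNNNGAA, through which interferon gamma signalling reaches promoters, were found in the windows of IRF1 and IRF9. They are shown in capitals with the flanking bases, because both genes are themselves induced by interferons, from RefSeq GRCh38.p14 at chr5:132490879-132490907 on the minus strand, where the first capital is at position -124 from the start, and at chr14:24161192-24161220 on the plus strand, at position -63.
IRF1: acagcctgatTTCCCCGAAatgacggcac
IRF9: accacgtgatTTCTGGGAAaaggccctcc

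RefSeq windows of 300 bases were at hand for 5 of the 8 genes, 9 windows in all, and matches were sought on both strands. The gamma-activated site occurred in 2 of 9 windows, against 7.66% of 35116 windows of all genes. The runt hexamers TGTGGT or TGCGGT occurred in 3 of 9, once in IRF8 and in 2 of the 4 windows of IRF5, against 19.6% of all windows. The core that IRF proteins recognise, AANNGAAA, occurred in 4 of 9, both overlapping windows of IRF8 among them, which share a match, against 22.8%. The longer response element, a repeat of GAAA with 2 bases between, occurred in 0 of 9, against 3.57%, and the E-box hexamers CAGCTG or CACCTG, the kind that E proteins bind, in 5 of 9, against 34.5%, the windows of IRF8 again sharing a match. No matches overlapped each other. A match describes these letters and is no evidence of binding, and windows of 1 gene overlap or lie close to each other.

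The directions of the small differences depended on how the arrays were brought to one scale. With the deposited scaling, 8 of the 12 probe sets above the floor had both U937-AE signals below both U937-Mt signals, 2 had both above and 2 overlapped, beside 34.1% below and 28% above for all 22349 such probe sets. After quantile normalization the counts were 3 below and 2 above, beside 28.6% and 31.2% of all such probe sets. After a shift to the same median they were 3 and 4, beside 14.3% and 50.7%, and after scaling to the 18 hybridization spike-in probe sets 2 and 5, beside 10.3% and 56.3%, so the array as a whole moved the same way. The median of all these probe sets moved with the scaling, at -0.05 as deposited, 0.01 after quantile normalization, 0.22 after the median shift and 0.29 with the spike-ins. Taken relative to that median, IRF8 was at -2.01 as deposited and at -1.95 after quantile normalization. In the same order IRF5 205469_s_at was at -0.61 and -0.74, IRF2 at 0.47 and 0.43 and IRF1 238725_at at 1.07 and 1.15. IRF3 was at -0.14 and -0.17, IRF7 at -0.28 and -0.25 and IRF4 204562_at at -0.32 and -0.19. The median shift and the spike-in scaling multiply each array by 1 factor. The relative values under them therefore equal the deposited ones by construction and are no further check. The median of the 12 was -0.22 relative to all such probe sets as deposited and -0.17 after quantile normalization.

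**Figure D3:**
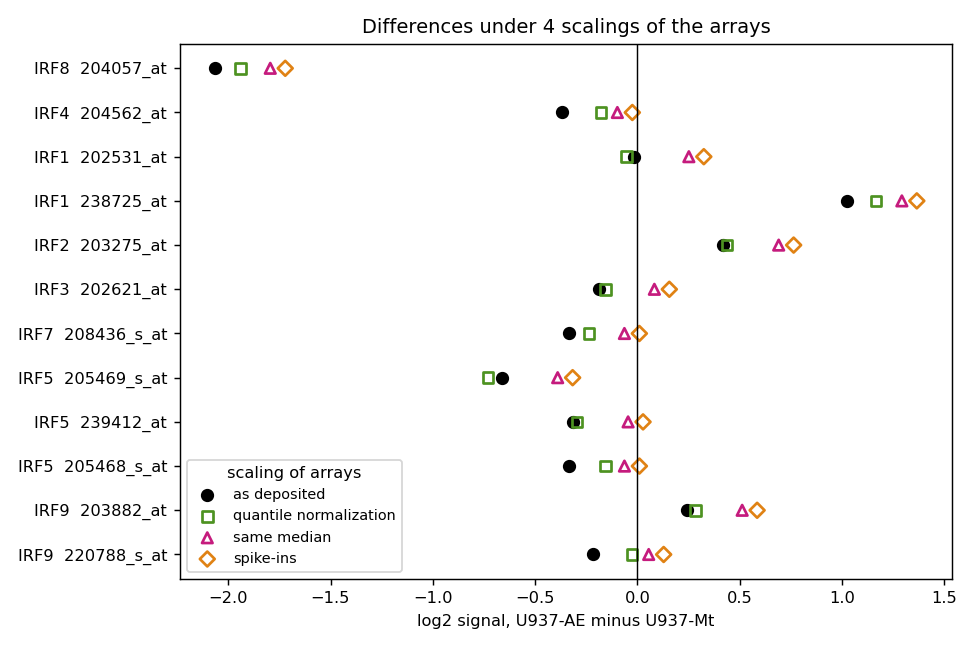
log2 difference (U937-AE minus U937-Mt) of the 12 IRF probe sets above the floor, with the arrays as deposited (filled circles), quantile normalized (squares), shifted to the same median (triangles) or scaled to the spike-ins (diamonds). IRF8 stays between -2.06 and -1.72 and IRF1 238725_at between 1.02 and 1.37, whereas IRF3, IRF7, IRF1 202531_at, IRF9 220788_s_at and the dimmer IRF5 probe sets cross 0.

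The genes around the IRFs were described by 7 lists, in which 144 genes had a probe set, 122 were measured, 6 were called lower and 13 higher, with a median log2 difference of 0.02. The median of all measured genes was -0.10, and the shares called are those given above for measured genes (6.12% lower, 2.6% higher). Of the 13 higher genes, 7 are targets of the interferon-activated complex of IRF9, 4 are targets of IRF1, and of the 6 lower genes 3 are partners or cofactors of IRFs.

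Interferons were near or below detection. Of 14 interferon genes, 8 were below the floor on all arrays, IFNB1 among them, and of the 5 measured 0 were called in either direction. Of 14 measured receptor and JAK-STAT genes 0 were called (median -0.15). Of 18 measured sensors, adaptors and kinases that activate IRFs, the call was lower for 2, higher for 1 and absent for 15 (median 0.05). STING1, the adaptor of cytosolic DNA sensing that leads to IRF3, gave 2039 and 1823 in U937-AE cells against 4583 and 4424 in U937-Mt, 2.34-fold lower, and its second probe set was also called lower. TLR4, the lipopolysaccharide receptor, was 1.91-fold lower in U937-AE (220.2 and 216 in U937-AE cells against 377 and 460.2 in U937-Mt), but 7 of 17 alternatives ended the call, and the other probe sets of TLR4 were not called. TLR3, the receptor of double-stranded RNA, was 1.87-fold higher (342 and 278 in U937-AE cells against 158 and 173 in U937-Mt), just above the floor in U937-Mt, and 4 of 17 alternatives ended the call.

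Of 14 measured partners and cofactors, the call was lower for 3, higher for 0 and absent for 11. The median log2 difference was -0.51. SPI1 (PU.1), the partner that brings IRF8 and IRF4 to DNA, gave 405 and 359 in U937-AE cells against 1007 and 1103 in U937-Mt, 2.77-fold lower. Every one of 17 alternatives kept the call, though leaving out an array or averaging the arrays could not end it. SPIB, its lymphoid and dendritic cell relative, was below the floor on both U937-AE arrays and gave 274 and 202 in U937-Mt, at least 1.89-fold lower in U937-AE, and 8 of 17 alternatives ended the call. IRF2BP2, a corepressor that binds IRF2, gave 5821 and 5205 in U937-AE cells against 9377 and 8906 in U937-Mt. Of its 6 probe sets 3 were called lower, 1 was below the floor on all arrays and 1 had a positive difference (0.31), and 5 of 17 alternatives ended the call of the brightest. The median of the list was -0.24 after the shift to the same median and -0.17 with the spike-ins. The median of all probe sets above the floor moved the same way, from -0.05 as deposited to 0.22 and 0.29.

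**Figure D4:**
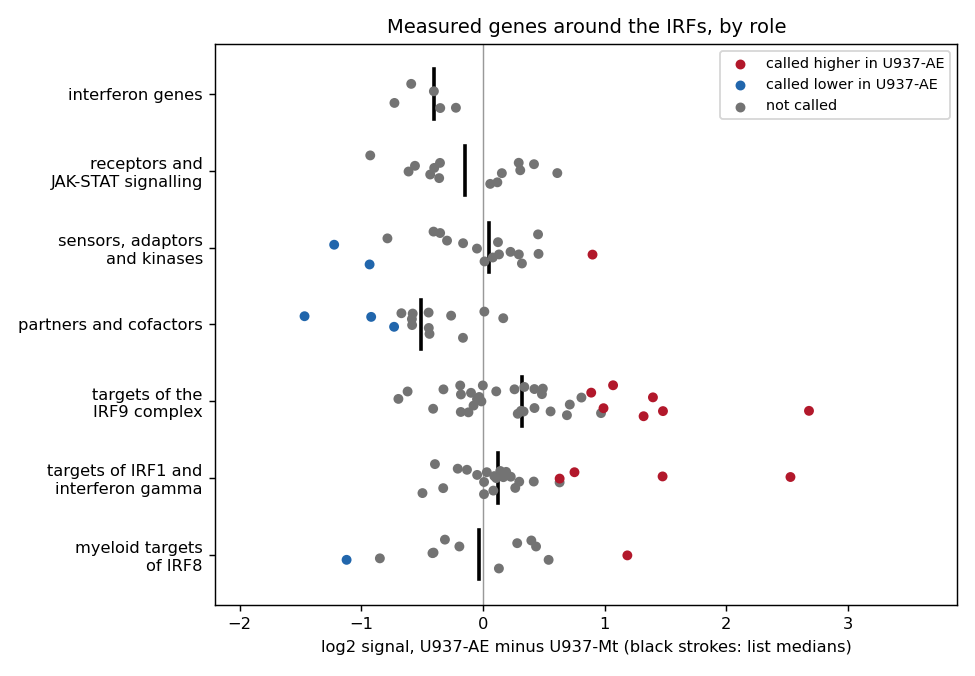
log2 difference (U937-AE minus U937-Mt) of the measured genes of 7 lists, 1 point per gene with random vertical jitter, called genes in red (higher) or blue (lower) and list medians as black strokes. The median of the IRF9 complex targets lies at 0.32 and that of the partners and cofactors at -0.51.

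Of 36 measured targets of the interferon-activated IRF9 complex, the call was lower for 0, higher for 7 and absent for 29. Their median log2 difference was 0.32. LGALS3BP, a secreted glycoprotein, gave 993 and 932 in U937-AE and was below the floor on both U937-Mt arrays, at least 6.41-fold higher in U937-AE. IFI44 gave 873 and 1042 in U937-AE cells against 344 and 339.6 in U937-Mt, 2.79-fold higher. OAS2, an enzyme that makes the activator of RNase L, gave 2487 and 2476 in U937-AE cells against 873 and 1017 in U937-Mt, 2.63-fold higher, and CMPK2, a mitochondrial nucleotide kinase, 2211 and 2146 in U937-AE cells against 896 and 849.5 in U937-Mt, 2.50-fold higher. These 4 calls held under all 17 alternatives. The rise was not shared by the whole list: ISG15 gave 1040.3 and 1015 in U937-AE cells against 1078 and 1124 in U937-Mt, and MX2 overlapped between the lines, at 2251 and 2444 in U937-AE cells against 2613 and 2256 in U937-Mt. These last genes were chosen after their values were seen. Under spike-in scaling 17 of the 36 were called higher, beside 10.6% of all measured genes under that scaling.

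Of 24 measured targets of IRF1 and interferon gamma, 0 had a lower call, 4 a higher one and 20 none (median 0.13). CXCL10, a chemokine for T cells, gave 1057 and 914 in U937-AE cells against 189 and 143 in U937-Mt, 5.76-fold higher (4.83 to 6.88), with 1 U937-Mt array raised to the floor. GBP1, a guanylate-binding protein, gave 419 and 416 in U937-AE and was below the floor on both U937-Mt arrays, at least 2.78-fold higher in U937-AE, and 2 more of its probe sets were called higher. The call of GBP1 was lost with the floor at the 75th percentile, which lies above its signals on all arrays. HLA-E was 1.55-fold higher (1.51 to 1.58) and TAP2, a subunit of the peptide transporter, 1.68-fold higher (1.54 to 1.84). HLA-E lost its call under 3 of 17 alternatives and TAP2 under 4, and the other TAP2 probe sets were not called. The probe sets of GBP1 and HLA-E used here are of a design that can bind transcripts of related genes.

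Of 12 measured myeloid targets of IRF8, CST3 was called lower, EGR1 was called higher and 10 had no call. Their median log2 difference was -0.03. CST3 (cystatin C), a protease inhibitor of monocytes and dendritic cells, gave 1362 and 1693 in U937-AE cells against 3248 and 3363 in U937-Mt, 2.18-fold lower, and 3 of 17 alternatives ended the call. EGR1, a zinc finger factor of macrophage differentiation, gave 915 and 935 in U937-AE cells against 415 and 398 in U937-Mt, 2.28-fold higher. All 17 kept this call, though leaving out an array or averaging the arrays could not end it. The other 2 probe sets of EGR1 were not called. CYBB, the catalytic subunit of the phagocyte oxidase, gave 118 and 168 in U937-AE cells against 291 and 224 in U937-Mt, a log2 difference of -0.85 that was not called. The lower of its U937-AE signals was below the floor, and 5 of 17 alternatives called CYBB lower, with log2 differences of -1.10 to -0.10 over all 17. The median of this list thus lay close to the -0.10 of all measured genes.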

How the data were processed

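RNA from the lines U937-AE and U937-Mt was measured on Affymetrix HG-U133 Plus 2.0 arrays, 1 pool of 3 extractions per line on 2 array copies. The intensities deposited by the authors are 1 signal value for each probe set on each array, computed with GCOS (version not given in the sources used here), which corrects the background and scales each array. The mean after trimming 2% at each end was 500.1 on every array. Such scaling fixes the mean signal, so a change of total RNA would not be seen, and small differences depend on it. The array number limits the precision.

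From these intensities, log2 was taken after signals under an array's 50th percentile were set to that percentile, and the 1.5-fold rule over the 4 comparisons was applied. A gene took its brightest probe set before the floor, with 1 gene symbol except for the members. Symbols came from the platform annotation. Members and lists were chosen with earlier results of these data known. Named genes were all members, up to 4 called genes of each list with the largest difference, SPI1, CYBB and IRF2BP2 in any case, and the 5 genes most like the called member gene. Some list genes are not reported here. No array was left out, and 62 control probe sets were.

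Alternatives were quantile normalization, a shift to the same median, scaling to the spike-ins, other floors, a 2-fold threshold, the mean of the arrays, limma with and without the array number as a block, the methods' t-test, the mean over probe sets and leaving out each array. Leaving out an array keeps a subset of the same comparisons, and the mean of the arrays follows from them, so neither can end a call. Counting non-overlapping probe sets by scaling, and reading 238725_at under each alternative, were added after the data were seen. The rule was tested on simulated data. Python 3.11.15, numpy 2.4.6, scipy 1.17.1, pandas 2.3.3, matplotlib 3.10.9, R 4.3.3 and limma 3.58.1 were used. Promoter sequences are from RefSeq.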

Additional observations from a re-analysis of the deposited data

How the results depend on the processing

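IRF8 was called lower under all 18 alternatives, several of which could not end the call. With an array left out or with the mean of the arrays, counts of calls can only stay or rise. The number of member probe sets called lower, 1 in the main setting, was 2 with quantile normalization, with the mean of the arrays and with limma, the second being IRF5, and 1 to 2 when an array was left out. The number of member genes called lower moved in the same way, to 2 under these settings and 1 to 2 without an array. Of all measured genes, 4.72% were called lower after quantile normalization, 13.6% with the mean of the arrays and 9.82% with limma. The member probe sets called higher fell to 0 with the floor at the 75th percentile and with a 2-fold threshold. Of the 12 probe sets above the floor, those with both U937-AE signals below both U937-Mt signals numbered 8 as deposited, 3 after quantile normalization, 3 after the shift to the same median and 2 with the spike-ins, beside 34.1%, 28.6%, 14.3% and 10.3% of all such probe sets. The list genes called lower, 6 in the main setting, were 3 after the median shift, 2 with the spike-ins, 2 with a 2-fold threshold, 15 with the mean of the arrays, 10 with limma, 3 with the methods' t-test and 2 with the mean over probe sets, and 9 to 12 when an array was left out, 12 being the count without the first U937-Mt array and 10 that without the other. Of all measured genes, 6.12% were called lower in the main setting, 2.99% after the median shift, 2.24% with the spike-ins and 2.03% with a 2-fold threshold. The share was 13.6% with the mean of the arrays, 9.82% with limma, 2.98% with the methods' t-test and 8.79% to 11.6% without an array. List genes called higher, 13 in the main setting, were 24 with the median shift and 28 with the spike-ins. They were 7 with the 2-fold threshold and 8 with the methods' t-test. In that order 7.04%, 10.6%, 0.758% and 1.01% of all measured genes were called higher, against 2.6% in the main setting. TLR3 and GBP1 turned to -0.10 with the floor at the 75th percentile, the value of the floors, at which both lie on all arrays.

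With limma, whose p-values rest on the spread of array copies alone, the adjusted p (Benjamini-Hochberg over all probe sets) was 0.000793 for IRF8, 0.0186 for IRF5 205469_s_at and 0.00824 for IRF1 238725_at, while IRF2 (0.0735), IRF4 (0.109), IRF7 (0.123), IRF3 (0.254), IRF9 (0.372) and IRF1 202531_at (0.905) missed 0.05. With the replicate block, the array number, the adjusted p of IRF2 (0.0314), IRF4 (0.0414), IRF7 (0.0314) and IRF9 (0.0486) was under 0.05, with differences under 1.5-fold, and IRF3 (0.145) and IRF1 202531_at (0.887) missed it. In that fit limma called 2 member probe sets and 2 member genes lower and 15 list genes lower, beside 13.5% of all measured genes. Over all probe sets it called 5149 in place of 3687. The numbers were not shown to pair the arrays: the differences between copies correlated at r = 0.05 across 22349 probe sets between the lines, and there are only 2 pairs. After Benjamini-Hochberg adjustment the methods' t-test called 0 member probe sets, against 1 lower and 1 higher before it. On the whole array it also called 0, against 669 lower and 271 higher before, so the 0 is no result about the members.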
